A study of Mus musculus with 9 samples.

Results

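Small leucine-rich proteoglycans are secreted matrix proteins that bind collagen fibrils, and 10 of their genes were followed here through removal and replacement of androgen in mouse muscle. The members were Dcn (decorin), Bgn (biglycan), Fmod (fibromodulin), Lum (lumican), Ogn (osteoglycin), Prelp, Aspn (asporin), Omd (osteomodulin), Kera (keratocan) and Podn (podocan). They were chosen by gene symbol, and all 10 are among the 14300 genes listed in both deposited tables of normalised counts. RNA came from tibialis anterior, a fast muscle of the lower leg, of male C57BL/6J mice of 3 groups with 3 libraries each, taken 4 weeks after treatment. The groups were control mice (headed as sham in the tables), orchiectomised mice (ORX, testes removed, which lowers circulating androgen), and castrated mice that received dihydrotestosterone (ORX+DHT), a strong agonist of the androgen receptor. The libraries are labelled as biological replicates. The dose, the ages of the mice and whether any were pooled are not given in the sources used here.

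The core proteins of the family fold into a curved stack of leucine-rich repeats that lies along collagen and governs how fibrils grow in width and fuse. Decorin, biglycan and asporin form class I of the family, and decorin and biglycan carry chondroitin or dermatan sulfate chains. Fibromodulin, lumican, keratocan, osteomodulin and Prelp form class II, several of which carry keratan sulfate; osteoglycin belongs to class III and podocan to a more distant class. Several members also bind growth factors of the TGF-β family. In muscle they are made chiefly by connective tissue cells between the fibres and by tendon cells, not by the fibres themselves.

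Promoter windows of 3 members are shown because Fmod and Bgn fell with DHT while Prelp, which lies on the same chromosome as Fmod, did not. They are the 250 bases before the RefSeq start site in GRCm38.p6, written 5′ to 3′ on the gene's strand. Capitals mark AGAACA, an androgen receptor half-site, or CAGAC, a SMAD-binding element (SMAD proteins carry TGF-β signals), searched on both strands; these motifs share no overlap in the windows shown.
Fmod, chr1:134037004-134037253, plus strand: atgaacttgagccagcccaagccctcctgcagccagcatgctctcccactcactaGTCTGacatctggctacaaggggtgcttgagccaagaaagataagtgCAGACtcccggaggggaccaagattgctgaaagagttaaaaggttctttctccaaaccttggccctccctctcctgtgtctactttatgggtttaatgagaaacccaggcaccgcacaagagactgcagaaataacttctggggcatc
Bgn, chrX:73483351-73483600, plus strand: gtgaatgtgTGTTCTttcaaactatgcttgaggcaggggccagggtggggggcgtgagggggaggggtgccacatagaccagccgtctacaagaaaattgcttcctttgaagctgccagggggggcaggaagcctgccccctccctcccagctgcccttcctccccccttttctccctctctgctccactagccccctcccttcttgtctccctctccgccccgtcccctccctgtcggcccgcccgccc
Prelp, chr1:133921402-133921651, minus strand: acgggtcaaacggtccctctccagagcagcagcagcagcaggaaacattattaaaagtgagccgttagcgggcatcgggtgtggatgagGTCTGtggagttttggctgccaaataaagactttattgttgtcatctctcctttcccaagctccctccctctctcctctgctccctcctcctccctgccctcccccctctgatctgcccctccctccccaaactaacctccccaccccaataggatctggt

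RefSeq windows were matched for 8 of the 10 members; Dcn and Lum were not among them. The Fmod window held CAGAC at 2 places, beginning at positions -195 and -148 from the start site, and no AGAACA. The Bgn window held AGAACA once, at -241, and no CAGAC, while the Prelp window held CAGAC once, at -161. In the windows of Aspn, Kera, Ogn, Omd and Podn neither motif was found. AGAACA was present in 16.1% and CAGAC in 42.2% of 32841 mouse promoter windows of the same length. Fmod and Bgn, both lower with DHT, shared neither motif, and CAGAC was found in Fmod and Prelp alike. An E-box (CANNTG, not capitalised) was present once in Fmod, at -189, once in Bgn, at -102, and not in Prelp; it was also in the windows of Aspn, Ogn and Podn and in 66.2% of all windows. A TATA box (TATAAA), found in 12.4% of all windows, was in those of Aspn and Ogn and in none of the 3 shown. A match describes the sequence and is not a binding site.

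Libraries held 1340209 to 1682235 reads over the listed protein-coding genes. The tissue matched its label, since all 10 muscle fibre marker genes were listed, with a summed level of 278676 to 369251 normalised counts in the 9 libraries. Control replicate 1 stood apart, with chi-square per degree of freedom of 12.8 and 13.2 against the other controls where all other replicate pairs lay between 1.82 and 3.37, so results that rest on it are also given without it. All levels below are normalised counts after the 9 libraries were scaled together; fold changes are log2 differences of value + 1, with limma's standard error, 95% interval and Benjamini-Hochberg adjusted p, and a call means that this p was under 0.05.

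With DHT, lumican, fibromodulin and biglycan transcripts were lower than in ORX muscle, whereas decorin, the most abundant member, stayed close to its ORX level. Lum stood at 28.7% of its ORX mean, Fmod at 38.7% and Bgn at 59.2%, against 94.7% for Dcn. Of 9 members abundant enough to test, 3 fell and none rose, where 1.7% of 8770 genes tested were called lower, 2.38% higher and 4.08% in either direction. All 9 differences were below 0, compared with 50.8% of all tested genes above 0, and the members' median was -0.50 against 0.01 for all genes. In RNA from whole muscle, fewer cells of a type and less RNA per cell cannot be told apart.

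Lumican (ENSMUSG00000036446, chr10:97565128-97572703 in GRCm38, plus strand) is a keratan sulfate proteoglycan that limits the lateral growth of collagen fibrils. Its 3 ORX libraries held 119, 92.1 and 103 normalised counts and its 3 ORX+DHT libraries 29.4, 37.7 and 22.7. Every ORX+DHT library thus lay below every ORX library, by a wide gap. The mean was 104 ± 13.4 (SD, n = 3) in ORX and 29.9 ± 7.50 (SD, n = 3) in ORX+DHT, a 3.49-fold difference. On the log2 scale Lum fell by 1.79 (SE 0.18, 95% interval -2.18 to -1.41, adjusted p = 4.81e-06). This was the largest fall among the members, and Lum was called in 16 of 16 alternative analyses.

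Fibromodulin (ENSMUSG00000041559, chr1:134037254-134048277, plus strand) shares a collagen-binding site with lumican and is abundant in tendon. Fmod stood at 154, 249 and 386 in ORX and at 89.2, 88.0 and 128 in ORX+DHT. The ORX libraries spread widely, yet the lowest of them was above the highest ORX+DHT library. Means were 263 ± 117 (SD, n = 3) and 102 ± 23.0 (SD, n = 3), a 2.58-fold difference, and the log2 change was -1.28 (SE 0.23, 95% interval -1.76 to -0.81, adjusted p = 0.00205). Fmod was also called in 16 of 16 alternatives.

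Biglycan (ENSMUSG00000031375, chrX:73483602-73495933, plus strand), the closest relative of decorin, binds collagen and the dystroglycan complex of the fibre membrane. Its counts were 153, 123 and 164 in ORX and 70.9, 112 and 77.1 in ORX+DHT. The groups did not overlap, but ORX+DHT replicate 2 came close to ORX replicate 2. Means were 147 ± 21.3 and 86.7 ± 22.2 (SD, n = 3 each), and Bgn fell by 0.77 on the log2 scale (SE 0.16, 95% interval -1.11 to -0.43, adjusted p = 0.00753). The call was kept in 14 of 16 alternatives. It was lost without ORX+DHT replicate 1 (adjusted p = 0.0635) and when all 9 libraries were fitted together (adjusted p = 0.0833).

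**Figure D1:**
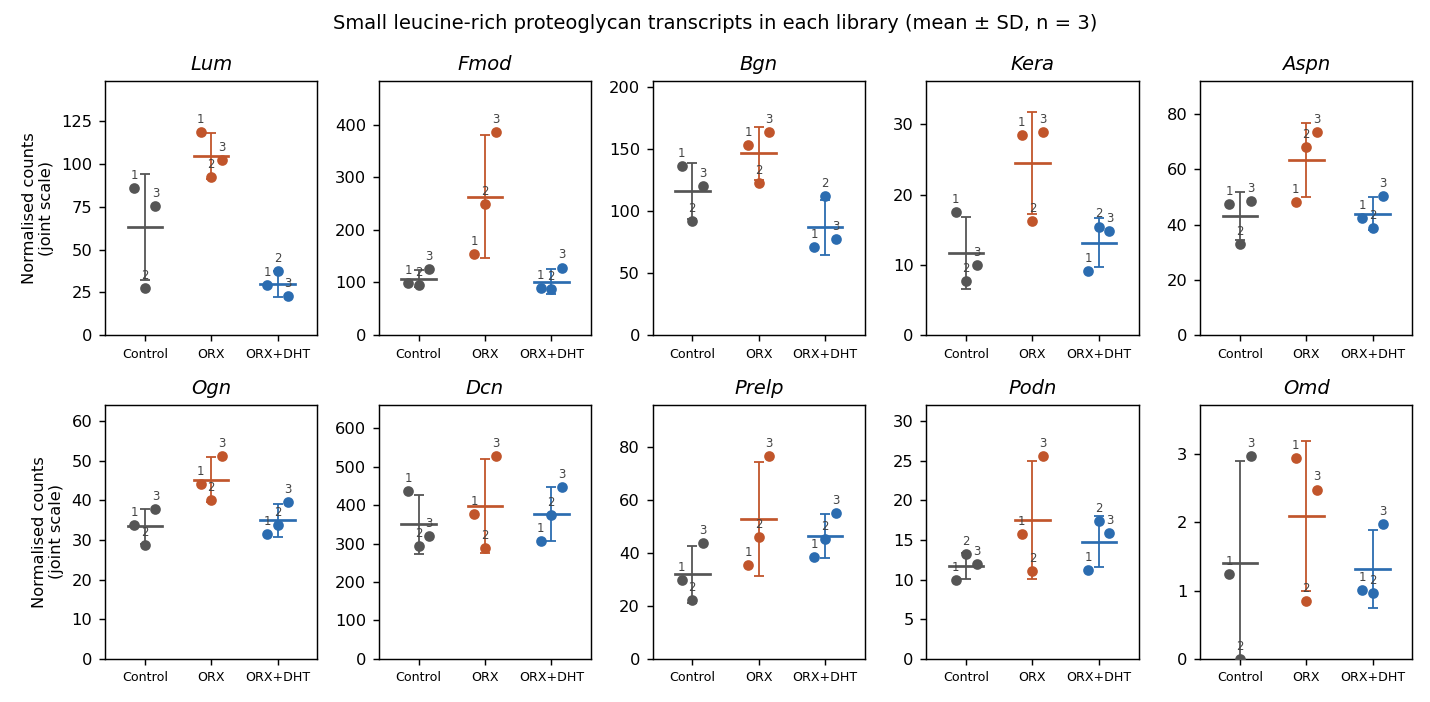
Normalised counts (joint scale, y axis) of the 10 members in the 9 libraries, by group (x axis); points are libraries with their replicate numbers, horizontal bars are means and vertical bars SD (n = 3). Lum, Fmod and Bgn libraries lie lower in ORX+DHT than in ORX without overlap, Dcn libraries overlap between all groups, and Omd stays under 3 counts.

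Kera, Aspn and Ogn had negative estimates that did not pass the test. Keratocan (chr10:97606879-97613692) is best known as a corneal keratan sulfate proteoglycan. Kera was low here, with 28.5, 16.2 and 29.0 counts in ORX and 9.12, 15.5 and 14.8 in ORX+DHT, so its groups were apart only by the gap between 16.2 and 15.5. Its log2 change was -0.84 (95% interval -1.46 to -0.23, adjusted p = 0.143). Asporin (chr13:49544443-49567565), a class I protein that binds TGF-β, stood at 48.1, 68.2 and 73.6 in ORX and 42.6, 38.7 and 50.4 in ORX+DHT. Aspn overlapped between groups through ORX replicate 1, and its change was -0.50 (95% interval -0.89 to -0.12, adjusted p = 0.165). Without that library it was called (-0.69, adjusted p = 0.0392). Osteoglycin (chr13:49608046-49624501) stood at 44.2, 40.1 and 51.3 in ORX and 31.4, 33.8 and 39.5 in ORX+DHT. Ogn did not overlap, but its change of -0.36 (95% interval -0.74 to 0.02) had an adjusted p of 0.37. With these, 5 of 9 tested members (Lum, Fmod, Bgn, Kera and Ogn) had every ORX+DHT library below every ORX library, which held for 9.13% of all tested genes.

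Decorin, Prelp and podocan lay near their ORX level. Decorin (ENSMUSG00000019929, chr10:97479609-97518143, plus strand) is the main dermatan sulfate proteoglycan of muscle connective tissue and binds TGF-β and myostatin. Dcn had 376, 288 and 529 counts in ORX and 308, 374 and 448 in ORX+DHT, and the ORX libraries enclosed all 3 of the ORX+DHT libraries. Means were 398 ± 122 and 377 ± 69.8 (SD, n = 3 each). The log2 change of Dcn was -0.05 (SE 0.17, 95% interval -0.40 to 0.30, adjusted p = 0.933). Prelp (chr1:133910304-133921414, minus strand), which anchors basement membranes to collagen, stood at 35.3, 46.1 and 76.9 in ORX and 38.5, 45.4 and 55.3 in ORX+DHT. Its change was -0.12 (95% interval -0.61 to 0.36, adjusted p = 0.869). Podocan (chr4:108014791-108096445, minus strand) had 15.7, 11.1 and 25.6 counts in ORX and 11.1, 17.4 and 15.8 in ORX+DHT. The change of Podn was -0.17, but at these counts its interval of -0.83 to 0.48 is wide (adjusted p = 0.862). The signs of Dcn, Prelp and Podn turned without ORX replicate 3 (0.18, 0.18 and 0.13), the library in which each of them was highest, and without ORX+DHT replicate 1 (0.08, 0.0013 and 0.0049).

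Omd, a bone-associated class II member (chr13:49582462-49592822), was represented by 0 to 3 reads in every library and was not tested.

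Orchiectomy alone left no member called, although all 9 tested members had higher means in ORX than in control muscle. The background was 5 of 8631 genes called (0.0579%), and 48.9% of all genes had an estimate above 0. The members' median was 0.54 against -0.01 for all genes. At an unadjusted p under 0.05 there were 5 members (Fmod, Kera, Lum, Aspn and Prelp), where 3.16% of all genes were higher at that level. Fmod, Lum and Ogn had every ORX library above every control library, as did 6.28% of all genes.

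Fmod stood at 99.9, 95.1 and 125 in control muscle, with a mean of 107 ± 16.1 (SD, n = 3), so its ORX mean was 2.47-fold higher. The log2 difference was 1.21 (SE 0.27, 95% interval 0.60 to 1.81), with an adjusted p of 0.265 by limma; DESeq2 on the recovered reads called it (1.31, adjusted p = 0.00479). Lum stood at 86.2, 27.6 and 75.5 in control muscle, where replicate 2 was far below the others. Its difference was 0.86 (95% interval 0.11 to 1.62, adjusted p = 0.675). Kera control libraries held 17.5, 7.74 and 9.93 counts, and the difference was 1.03 (95% interval 0.27 to 1.80, adjusted p = 0.653). Without control replicate 1 the estimates were 1.16 for Fmod (adjusted p = 0.0664), 1.16 for Lum (adjusted p = 0.103) and 1.34 for Kera (adjusted p = 0.0967), and again no member was called.

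Bgn had control counts of 136, 91.8 and 120, and its ORX estimate was 0.34 (95% interval -0.07 to 0.76, adjusted p = 0.717). Aspn (control 47.4, 33.2 and 48.7) and Ogn (33.7, 28.7 and 37.7) had estimates of 0.54 and 0.43. Prelp (30.0, 22.1 and 43.7) had one of 0.69 and Podn (9.99, 13.3 and 11.9) one of 0.47. None of these had an adjusted p below 0.676. Dcn had 437, 293 and 320 counts in control muscle, which overlapped the ORX libraries, and the smallest estimate of the 9 at 0.16 (95% interval -0.33 to 0.65, adjusted p = 0.883); without control replicate 1 it was 0.33, and without ORX replicate 3 it was -0.07. Because the 3 ORX libraries serve in this comparison and in the one with DHT, opposite signs in the pair are not separate evidence.

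ORX+DHT muscle did not differ from control muscle in any tested member by the test, against 3 of 8595 genes called (0.0349%). The estimates nearest to 0 were those of Aspn (0.04), Ogn (0.06), Fmod (-0.08) and Dcn (0.11). Fmod had means of 102 in ORX+DHT and 107 in control, and its interval was -0.50 to 0.35. Lum was the furthest below control at -0.92 (95% interval -1.74 to -0.11, adjusted p = 0.736), since ORX+DHT libraries averaged 29.9 and controls 63.1 ± 31.2 (SD, n = 3). Control replicate 2, at 27.6, lay inside the ORX+DHT range, and without control replicate 1 the estimate was -0.63 (adjusted p = 0.562). Bgn had an estimate of -0.43 (95% interval -0.90 to 0.04) and Prelp one of 0.56 (95% interval -0.01 to 1.14), both with an adjusted p of 0.736. Of the 9, Lum alone had an unadjusted p under 0.05, where 6.48% of genes did, and no member had groups without overlap, where 6.86% of genes were higher and 7.12% lower without overlap.

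**Figure D2:**
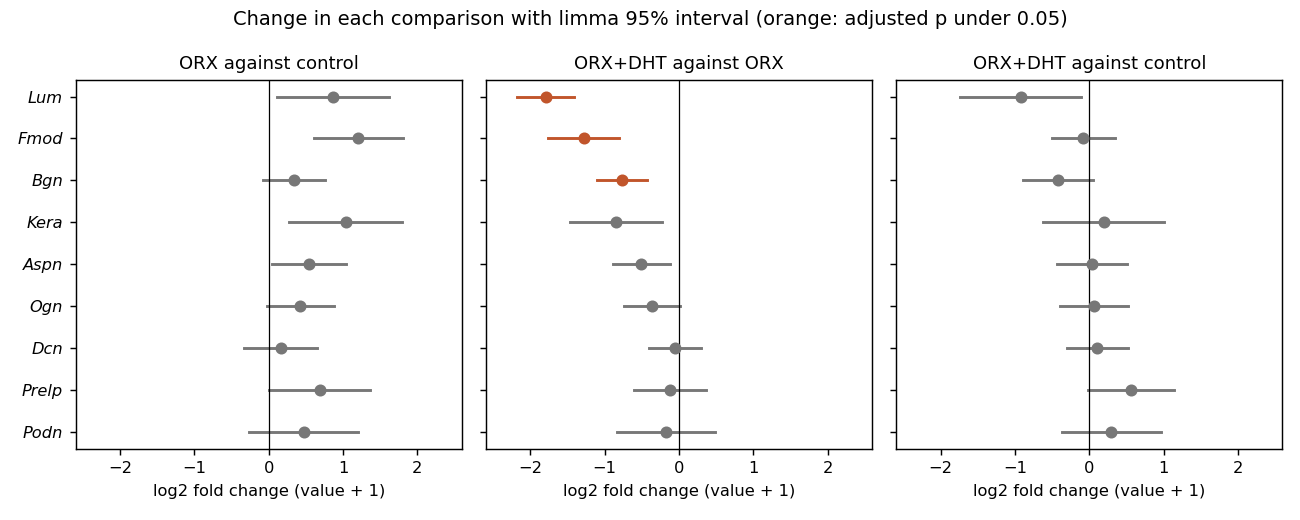
Log2 fold change (value + 1, x axis) of the 9 tested members in the 3 comparisons; points are limma estimates, lines 95% intervals, and orange marks an adjusted p under 0.05. Orange points are Lum (-1.79), Fmod (-1.28) and Bgn (-0.77) in ORX+DHT against ORX only; that panel and the panel of ORX against control share the ORX libraries.

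Each member was related to decorin in the same library, to test whether its change with DHT differed from that of decorin. Dcn had the change nearest to 0 of the 9 tested members (-0.05). The ratios therefore largely repeat the comparison of ORX+DHT with ORX. No ratio to Prelp or Podn was fitted, so members that fell were not tested against those that did not as groups. By limma lumican was called lower relative to decorin, while fibromodulin, biglycan and keratocan had lower ratios that did not pass the test. The Lum to Dcn ratio, of normalised counts + 1, was 0.318, 0.322 and 0.195 in ORX and 0.0983, 0.103 and 0.0529 in ORX+DHT. In control muscle it was 0.199, 0.0974 and 0.238, so control replicate 2 lay within the ORX+DHT range. The log2 ratio changed by -1.74 with DHT (SE 0.37, 95% interval -2.47 to -1.01, limma adjusted p = 0.000955). Over all genes 0.547% of ratios to Dcn were called in either direction and 0.251% were called lower. The call of Lum was lost without ORX replicate 1 (-1.63, adjusted p = 0.184) and without ORX+DHT replicate 3 (-1.43, adjusted p = 0.217).

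For Fmod the ratio to Dcn was 0.411, 0.864 and 0.73 in ORX, 0.292, 0.237 and 0.289 in ORX+DHT, and 0.23, 0.327 and 0.393 in control muscle. Its change was -1.23 (SE 0.36, 95% interval -1.94 to -0.53, adjusted p = 0.0966). Bgn, the nearest relative of Dcn, had ratios of 0.409, 0.428 and 0.311 in ORX and 0.233, 0.302 and 0.174 in ORX+DHT. That change was -0.72 (95% interval -1.43 to -0.01, adjusted p = 1), so the fall of Bgn was not shown to differ from the near-zero change of Dcn. Kera had a change of -0.79 (95% interval -1.63 to 0.04). The ratios of these 4 genes did not overlap between ORX and ORX+DHT, as for 1.8% of all genes. Aspn (-0.45), Ogn (-0.31), Podn (-0.12) and Prelp (-0.07) overlapped. In this fit the noise of Dcn enters the ratio of every gene, which limma does not model. The intervals of this fit have the width of a normal distribution, with a variance taken from the trend over all genes. A member's own spread between libraries thus had almost no weight, and the p-values are less firm than elsewhere. The exact two-sided permutation test of a single ratio gave p = 0.1 for Lum, Fmod, Bgn and Kera, the smallest p that 3 against 3 libraries allow.

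**Figure D3:**
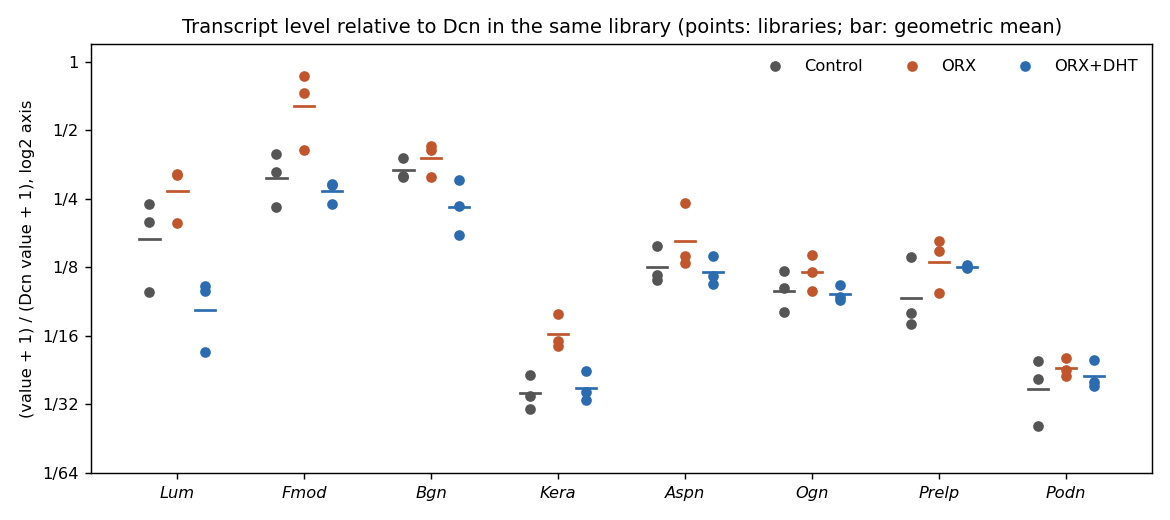
Ratio of each member's normalised count to that of Dcn in the same library (1 added to both, log2 axis); points are libraries by group and bars geometric means. Lum, Fmod, Bgn and Kera have all ORX+DHT points below all ORX points, whereas those of Aspn, Ogn, Prelp and Podn overlap.

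Divided by the length of the principal transcript, levels can be set beside each other between genes. Decorin led in every group, at 199 ± 43.6 counts per kb in control, 226 ± 69.4 in ORX and 214 ± 39.7 in DHT-treated muscle (SD, n = 3 each). In control muscle Bgn followed with 48.0 counts per kb, then Fmod with 34.2, Lum with 25.8 and Aspn with 18.5. Ogn (13), Prelp (8.83), Kera (5.14), Podn (3.70) and Omd (0.627) made up the rest. From Bgn down to Podn each gene's control range overlapped that of its neighbour, so only Dcn at the top and Omd at the bottom stood clear.

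In ORX muscle Fmod was second at 84.3 ± 37.4 counts per kb, overlapping Bgn at 60.6, and Lum (42.7), Aspn (27.2) and Ogn (17.6) followed without overlap between them. From Ogn down, Prelp (14.6), Kera (10.8) and Podn (5.51) each overlapped the gene above, and Omd was last at 0.931. With DHT the order was Bgn (35.8), Fmod (32.6), Aspn (18.8), Ogn (13.6), Prelp (12.8), Lum (12.2), Kera (5.76), Podn (4.66) and Omd (0.586). Lum thus went from rank 4 in control and ORX muscle to rank 7, where its range overlapped those of Prelp and Ogn. Bgn and Fmod overlapped each other, and so did Kera and Podn. The order depends on the length used: over the union of all annotated exons Dcn came to 68.2 counts per kb in ORX, below Fmod at 79.6, and Bgn moved to rank 4 without androgen loss, rank 5 after it and rank 4 with DHT.

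Of the 10 members 8 lie in 3 chromosomal clusters, and called and uncalled members lie side by side in 2 of them. On chromosome 10 Dcn, Lum and Kera follow each other on the plus strand with 47.0 kb between Dcn and Lum and 34.2 kb between Lum and Kera. Lum fell by 1.79, while Dcn, its neighbour, had -0.05 and Kera -0.84 with an adjusted p of 0.143. On chromosome 1 Prelp (-0.12) and Fmod (-1.28) are 116 kb apart on opposite strands, with Optc, a low-level relative, 2.31 kb from Prelp. On chromosome 13 Ecm2, Aspn, Omd and Ogn lie within gaps of 11.7, 14.9 and 15.2 kb, and none of them was called. Bgn and Podn have no other member near them.

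**Figure D4:**
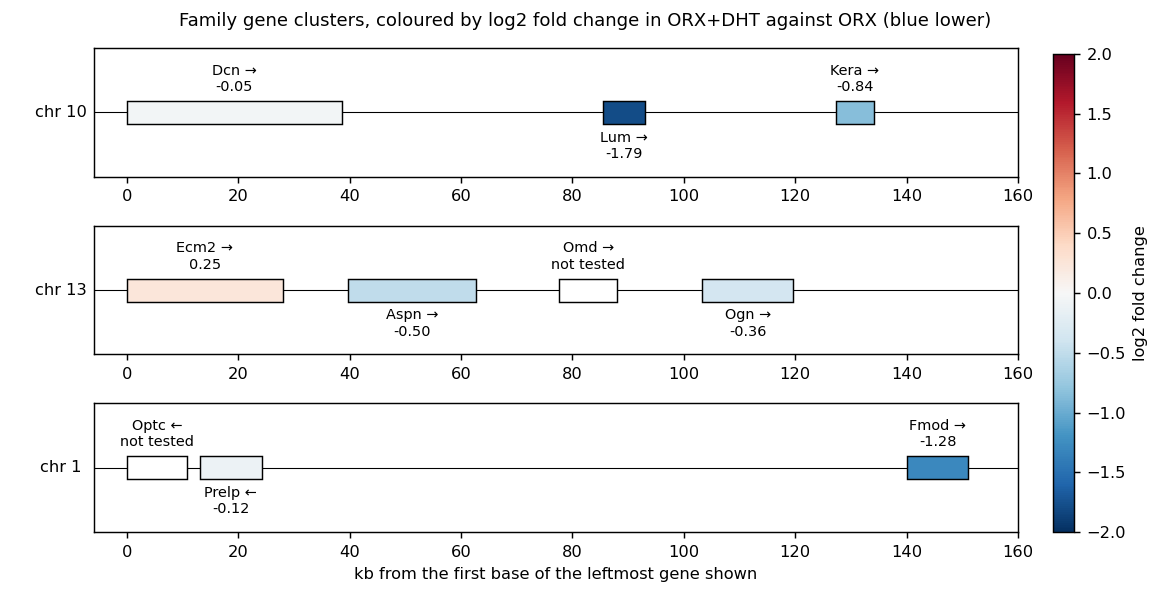
Positions of the family genes in 3 clusters (x axis, kb from the first base of the leftmost gene shown; arrows give the strand), coloured by log2 fold change in ORX+DHT against ORX. Lum (-1.79) lies between Dcn (-0.05) and Kera (-0.84), and Fmod (-1.28) shares its cluster with Prelp (-0.12); Omd and Optc were not tested.

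Among 8 further family genes, chondroadherin (Chad), a cartilage and tendon protein that binds collagen, fell with DHT and Ecm2 did not. Chad counts were 12.8, 23.9 and 35.6 in ORX and 8.11, 9.67 and 4.94 in ORX+DHT, with no overlap; controls held 3.75, 4.42 and 10.9. Its log2 change was -1.49 (SE 0.36, adjusted p = 0.0231). The call rested on single libraries: it was lost without ORX replicate 2 (adjusted p = 0.114), ORX replicate 3 (0.152), ORX+DHT replicate 1 (0.0599) or ORX+DHT replicate 3 (0.0801), and in the fit of all 9 libraries (0.171). DESeq2 gave Chad no adjusted p. Ecm2, the neighbour of Aspn, had 44.2, 26.4 and 41.4 counts in ORX and 43.6, 40.6 and 46.4 in ORX+DHT, with a change of 0.25 (adjusted p = 0.644). Podnl1, the paralogue of Podn, was too low to test, at 4.91, 4.26 and 4.14 in ORX and 0, 0.967 and 0 in ORX+DHT. Tsku, Chadl, Nyx and Optc were also below the minimum, and Epyc was not analysed here.

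Fibrillar and fibril-associated collagens, the ligands of the family, included 7 genes that fell of 13 tested, and 0 rose. The median was -0.82, and 1.7% of all tested genes were called lower. This list and those below were chosen with earlier results of these data known, so their counts are not separate evidence. Col12a1, which coats type I fibrils, had ORX counts of 187, 144 and 154 and ORX+DHT counts of 31.4, 28.0 and 29.6. Its log2 change was -2.40 (adjusted p = 1.01e-08). Controls spread widely for Col12a1, at 31.2, 14.4 and 105. Col11a1, which sets the core of thin fibrils, changed by -2.53 (adjusted p = 2.31e-06) and Col16a1 by -1.60 (adjusted p = 7.44e-05). The other called collagens were Col1a1, Col1a2, Col5a2 and Col14a1; Col14a1 lost its call without ORX replicate 1 or 3 (adjusted p = 0.181 and 0.122) or ORX+DHT replicate 1 or 2 (0.163 and 0.089) and with quantile scaling (0.0507). In the fit of all 9 libraries 5 collagens were called, without Col5a2 (adjusted p = 0.199) and Col14a1 (0.173). Among 12 tested genes of collagen crosslinking and trimming 0 were called, with a median of -0.25. All 12 estimates were below 0, where 50.8% of all tested genes were above 0, and Lox was just short of a call (-0.84, adjusted p = 0.0504). In this list 1 gene was called lower with a pseudocount of 10, TMM scaling, the replicate block or edgeR, and without ORX replicate 1 or 2.

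Proteases that can cut small leucine-rich proteoglycans included 4 tested genes, of which 3 fell, against 1.7% of all tested genes. Mmp13, an interstitial collagenase, had 120, 59.7 and 86.0 counts in ORX and 4.05, 0.967 and 4.94 in ORX+DHT. Its log2 change was -4.49 (adjusted p = 5.13e-07). Controls held 4.99, 0 and 60.6 counts of Mmp13, so control replicate 3 lay within the ORX range. Mmp14, a membrane-bound protease, changed by -1.38 (adjusted p = 0.00274) and Mmp2, a gelatinase, by -0.84 (adjusted p = 0.00347). When all 9 libraries were fitted together Mmp14 and Mmp2 were not called (adjusted p = 0.103 and 0.0913). The remaining one, Adamts5, an aggrecanase, had an estimate above 0 that did not pass the test (0.46, SE 0.21, adjusted p = 0.334).

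Among genes that build the sugar chains of the family none was called lower. Of 9 tested genes of chondroitin and dermatan sulfate synthesis 0 fell and 1 rose, Fam20b, the kinase that primes chain extension (0.55, SE 0.12, adjusted p = 0.014), a call lost without ORX replicate 1 (0.0607) or ORX+DHT replicate 1 (0.0769), in the fit of all 9 libraries (0.258) and with DESeq2 (0.0557). Keratan sulfate synthesis had 3 tested genes and 0 called. The 13 tested growth factors and receptors that members bind, among them Tgfb1 and Mstn, had 0 called and a median of 0.13. Of 13 other matrix and cell surface proteoglycans 0 fell and 1 rose, Gpc1, a heparan sulfate proteoglycan (0.34, SE 0.08, adjusted p = 0.0206); the median was 0.31. The call of Gpc1 was kept in 9 of 16 alternatives and lost without ORX replicate 1 (adjusted p = 0.0626) or any of the 3 ORX+DHT libraries (0.0573 to 0.117). It was also lost with quantile scaling, in the fit of all 9 libraries and with DESeq2, with an adjusted p of up to 0.331. Neither of the comparisons with control muscle called any gene of these lists (0 in each).

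**Figure D5:**
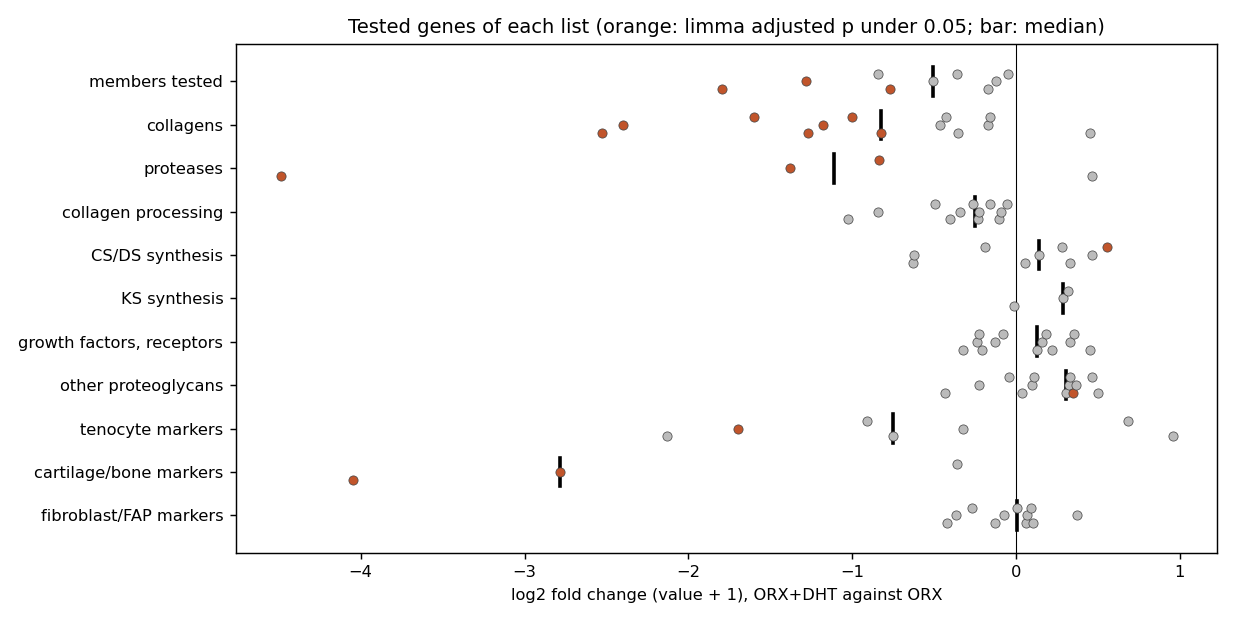
Log2 fold change (value + 1, x axis) in ORX+DHT against ORX of the tested genes of each list (rows); each point is a gene, black bars are list medians and orange marks an adjusted p under 0.05. Medians of collagens (-0.82), proteases (-1.11) and members (-0.50) lie left of 0, with Col5a3 (0.45) and Adamts5 (0.46) right of it, while chain synthesis genes, other proteoglycans and fibroblast markers lie around or right of 0.

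Markers of the cells that make these proteoglycans were read in the same comparison. Of 11 tested markers of fibro-adipogenic progenitors or fibroblasts 0 were called, the median was 0.01, and the summed level of all 12 was 876 to 1453 in ORX libraries, 1170 to 1372 with DHT and 892 to 1300 in controls. Tenocyte markers had mostly negative estimates, with 5 of 7 tested below 0. Their summed level over 10 genes was 376 to 519 in ORX libraries and 275 to 333 with DHT, without overlap, against 282 to 410 in controls. Of all single genes tested, 9.13% were lower with DHT without overlap. Thbs4 made up most of that sum, with 262, 255 and 322 counts in ORX and 204, 236 and 227 in ORX+DHT, and was not called (-0.32, adjusted p = 0.121). Of the 7 tested, with a median of -0.75, Tnc, a matrix glycoprotein of tendon, was the only one called (-1.70, adjusted p = 0.000459). Comp (-2.13, adjusted p = 0.109), Cilp2 (-0.91, adjusted p = 0.209) and Tnmd (-0.75, adjusted p = 0.25) had estimates below 0 and were not called. Fibin (0.96, adjusted p = 0.0868) and Angptl7 (0.68, adjusted p = 0.71) had estimates above 0. The tendon-defining factor Scx was at 3.93, 5.12 and 7.44 in ORX and 4.05, 5.80 and 1.98 in ORX+DHT.

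Among cartilage or bone markers, the summed level over the 10 genes listed in both tables was 148 to 187 in ORX libraries, 55.1 to 62.2 with DHT and 40.9 to 129 in controls. Of 3 tested 2 fell, against 1.7% of all tested genes: Ibsp (-4.05) and Spp1 (-2.78), both proteins of mineralised matrix. The bone-defining genes Sp7, Bglap and Dmp1 had means under 1 count. Acan of the same list, also too low to test, held 9.82, 8.53 and 3.31 counts in ORX and 0, 0 and 1.98 in ORX+DHT. Its controls held 0, 0 and 12.9. Without a minimum mean 4 of 11 genes of the list were called lower with DHT, where 370 of 14675 genes were called in either direction. Summed endothelial markers were 728 to 853 in ORX libraries and 878 to 914 with DHT. Smooth muscle markers were 1021 to 1100 in ORX libraries and 1184 to 1224 with DHT. Both sums were higher with DHT, although 0 of the 6 and 0 of the 3 tested genes were called. Macrophage, Schwann and satellite cell sums overlapped and had 0 called, and adipocyte markers were too low to test. Summed muscle fibre markers were 278676 to 289697 in ORX libraries, 294429 to 315439 with DHT and 324428 to 369251 in controls. Of these 10 markers 4 had estimates below 0 with DHT. The genes that rose were 2, Acta1 (0.47) and Myh1 (0.47), where 2.38% of all tested genes were called higher. In the fit of all 9 libraries neither was called (adjusted p = 0.42 and 0.265), quantile scaling called 1 marker higher and 2 lower without Myh1 (adjusted p = 0.159), the replicate block called 4 higher and 1 lower, and Acta1 was lost without ORX replicate 2 (adjusted p = 0.0524). What part the tenocyte, bone, endothelial, smooth muscle or fibre signal has in the fall of Lum, Fmod, Bgn and Chad was not tested.

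Among the genes whose profile over the 9 libraries was most like that of Lum were Tnc, Mfap4, Ctsk and Mmp14, with root mean square distances of 0.41 to 0.43 between centred log2 values among 8630 genes compared. Bgn was the nearest member to Lum, at rank 16, followed by Kera at rank 95 and Fmod at rank 263, and Dcn stood at rank 2513. The profile of Dcn was most like those of Crip2, Serping1, Ddx47, Clec3b and Scara5, at distances of 0.11 to 0.15. Clec3b and Scara5 are fibroblast genes, and Clec3b is on the fibroblast list above. Ogn (rank 256) and Podn (rank 1035) were the members nearest to Dcn, while Lum was at rank 8536. These likenesses are over 9 libraries that include the group differences and are given as a description.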

How the data were processed

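RNA of 9 libraries (3 per group) was sequenced from polyA-selected, strand-kept libraries, per the labels' protocols. The authors deposited 2 tables, of control with ORX libraries (14596 genes) and of ORX with ORX+DHT libraries (14675 genes). The values are a signal, normalised counts, which the authors made by dividing each library's reads by 1 scaling factor before deposit, as the deposited values show. Reads were trimmed, aligned and counted with Trim Galore 0.6.7, HISAT2 2.2.1, featureCounts 2.0.1 and DESeq2 1.36.0 on GRCm38, per the submitters' processing notes. The columns headed sham were taken as control, the only group without orchiectomy, by replicate number. All values were whole multiples of 1 step per library (tolerance 0.001), so reads were recovered by division; for control replicate 3 the step was close to 1. Unmapped columns numbered 0.

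The ORX libraries were tested against control, and ORX+DHT against them, within 1 table each, since the tables were scaled separately. ORX+DHT against control, and all printed levels, used 14300 shared genes rescaled together by median-of-ratios factors. limma 3.58.1 in R 4.3.3 (lmFit, eBayes with trend, two-sided) was run on log2(value + 1) where a gene's mean was at least 10 (8631, 8770 and 8595 genes), with Benjamini-Hochberg adjustment over all of them; the scale understates changes of low genes. With 3 libraries per group, p-values rest only in part on a gene's own spread between these libraries. For each gene limma draws the variance toward a trend over all genes. A gene with widely spread libraries, such as Fmod in ORX, can thus get a smaller standard error than its own libraries give. The ratio to Dcn was fitted over all genes, and the exact permutation test of it was added after seeing the data. Transcript lengths and positions are from GENCODE M21 and promoters from RefSeq. Fits were tested on simulated data.

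Members and gene lists were chosen with earlier results of these data known. Named were all members, all further family genes, the 3 largest falls and rises called in each other list, and the 5 profiles nearest to Lum and to Dcn, of which 1 is not reported here; other names, such as further collagens and markers, were added after their values were seen. Alternatives were a pseudocount of 0.1 or 10, no minimum, a minimum mean of 50, TMM or quantile scaling, all 9 libraries in 1 fit, a replicate block, each library left out, edgeR 4.0.16 and DESeq2 1.42.0 on recovered reads.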

Additional observations from a re-analysis of the deposited data

How the results depend on the processing

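Of 508 alternative values for the members, 481 kept their direction and side of the threshold, 5 lost a call, 3 gained one and 19 turned sign. None of those that turned belonged to a gene called in that same comparison. The total includes the exact permutation test of the ratios to Dcn, which cannot give a p under 0.1 and so could keep no call. Its result for Lum is among the lost calls. In ORX against control DESeq2 called 1 member (Fmod). Relative to Dcn the replicate block called 2 members (Fmod and Lum), and leaving out a library gave 0 to 1. The signs that turned did so when 1 library was left out: against ORX, Dcn ranged from -0.26 to 0.18, Prelp from -0.37 to 0.18 and Podn from -0.44 to 0.13; for ORX against control Dcn ranged from -0.067 to 0.37; for ORX+DHT against control Dcn ranged from -0.022 to 0.28, Fmod from -0.26 to 0.041, Ogn from -0.036 to 0.15, Aspn from -0.14 to 0.13 and Kera from -0.041 to 0.50; Prelp relative to Dcn ranged from -0.30 to 0.079.

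Correlations of same-numbered libraries were -0.17 to 0.06 in ORX against control, where 1 of 3 libraries correlated best with their own number. In ORX+DHT against control they were -0.10 to -0.0035, with 0 of 3. In ORX+DHT against ORX they were 0.06 to 0.15, with 3 of 3, and different-numbered libraries gave -0.085 to 0.022. Whether the replicate numbers mark paired samples was not tested. The block moved the whole-table count of ORX+DHT against ORX from 358 to 571 genes; a single fit gave 123, DESeq2 221, and leaving out a library 223 to 350. In ORX against control 5 genes became 16 without a minimum, 23 in a single fit, 28 with DESeq2 and 1 to 51 with a library left out. In ORX+DHT against control 3 became 11, 13 with DESeq2, 6 with quantile scaling and 0 to 66. The causes were not tested. Members under about 30 counts (Kera, Podn) had wide intervals, and Omd was below the depth needed for a test.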
